A study of Mus musculus with 12 samples.

Results

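DKO ovaries were compared with control testes on the autosomes at E14.5, to describe which germ cell and somatic genes still separated the double mutant ovary from a normal testis. The comparison used 6 of the 12 arrays of the series, 3 of each group, and 17755 of the 18666 genes tested. Left out were 730 genes with a probe on X or Y and 181 genes without a placed probe. DKO ovaries came from female embryos labelled *Smad4*flox/flox MerCreMer *Stra8*-/-, in which both copies of *Smad4* could be deleted and both copies of *Stra8* were mutant. Control testes came from male embryos labelled *Smad4*Flox/+ StellaMerCreMer *Stra8*+/-. They thus carried the Cre transgene, 1 floxed *Smad4* allele and 1 mutant *Stra8* allele. The 3 control ovaries are given beside them, and all of these were *Stra8*+/-. Control ovary 1 was *Smad4*Flox/+ StellaMerCreMer, control ovary 2 was *Smad4*Flox/+ and control ovary 3 was *Smad4*Flox/Flox, the last 2 without a Cre transgene in their labels. The remaining 3 arrays were of ovaries labelled *Smad4*flox/flox MerCreMer *Stra8*+/-. They entered the shared fit and the probe filter and are not described below. Every mother received tamoxifen at E9.5 and E10.5, and the background was mixed. Cre was driven by *Stella* regulatory sequence, which is active in germ cells, and the study described its efficiency as variable. The deletion therefore concerned germ cells, and possibly not all of them. "DKO ovary" below means an array labelled so.

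In the fetal testis, Sertoli cells enclose the germ cells in cords, secrete anti-Mullerian hormone and signal to the interstitium. Fetal Leydig cells in the interstitium make androgen precursors from cholesterol. Pregranulosa cells are the supporting cells of the ovary and depend on WNT and R-spondin signalling. Female germ cells enter meiosis in the fetal ovary under retinoic acid, with STRA8 as the gatekeeper, whereas male germ cells stop dividing and switch on *Nanos2* and the piRNA and DNA methylation machinery. Whole gonads were measured here, so that germ and somatic RNA were read together.

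RNA was labelled from 0.2 µg per sample and hybridised to single-colour Agilent arrays, and each array was 1 sample. Nothing in the labels says whether samples of a group shared a litter, so p-values measure the spread between these samples. A level below is log2 of the spot intensity minus the 75th percentile of the same array, so that 0 is that percentile. A difference is the mean level of the DKO ovaries minus that of the testes, on the log2 scale. Probes well above background made up 66.2% to 67.7% of probes in testes and 60.4% to 70.4% in DKO ovaries. Replicate arrays correlated at r = 0.990 to 0.994 for the testes and r = 0.979 to 0.984 for the DKO ovaries, computed across genes, which share each array. All 3 testes were on slide 1, DKO ovaries 1 and 2 on slide 2 and DKO ovary 3 on slide 3. No slide held both groups, so that slide and group could be separated only through the other arrays, and slide 1 was tied to the rest by control ovary 1 alone.

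*Stra8*, which is needed for the entry into meiosis, was 1 of the 2 targeted genes and had the largest rise of the comparison. Its level was -2.98, -2.56 and -2.32 in the testes and 5.61, 5.28 and 5.38 in the DKO ovaries, against 6.71, 6.16 and 6.46 in the control ovaries. The signal in the DKO ovaries was far above every testis and below every control ovary, with a log2 difference of 8.05 (SE 0.18, adjusted p = 2.41e-09 from limma). Its probe lies at chr6:34889231-34889290 on mm9, and where the mutant allele is disrupted relative to it is not given in the sources used here. The probe therefore did not check the *Stra8* label, and its signal says nothing of protein. *Smad4*, the other targeted gene, encodes the shared partner of receptor-activated SMAD proteins. It lay at 2.42, 2.19 and 1.97 in the testes and 2.09, 1.96 and 2.19 in the DKO ovaries, and the groups overlapped (difference -0.12, SE 0.14, adjusted p = 0.536). A whole gonad reads germ and somatic *Smad4* together, so this probe did not check the deletion either.

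Since the retinoic acid target *Stra8* led the differences, the 250 bases before the start site were searched for AGGTCA, the core motif of retinoic acid receptors, on either strand. Of the 32 meiosis genes tested, 26 had a promoter in the RefSeq table (GRCm38.p6), and 6 of these held the letters (23.1%), against 14.1% of 31365 autosomal promoters. They were *Stra8*, *Mei1*, *Hormad1*, *Sycp3* and *Terb1*, which were called higher in DKO ovaries, and *Psmc3ip*, which was not called. *Stra8*, *Mei1* and *Hormad1* are shown as 3 called genes with a match, which stands in capitals (reverse complement TGACCT in *Mei1*), 5′ to 3′ on the coding strand. *Stra8*, chr6:34920698-34920947, has matches 194 and 38 bases before the start. *Mei1*, chr15:82082226-82082475, has 1 at 215 bases, and *Hormad1*, chr3:95559427-95559676, has 1 at 73 bases.
Stra8: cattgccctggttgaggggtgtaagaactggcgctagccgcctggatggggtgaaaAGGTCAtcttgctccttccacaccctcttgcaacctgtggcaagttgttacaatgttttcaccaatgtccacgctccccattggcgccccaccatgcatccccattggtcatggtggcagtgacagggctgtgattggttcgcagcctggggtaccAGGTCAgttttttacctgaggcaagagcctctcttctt
Mei1: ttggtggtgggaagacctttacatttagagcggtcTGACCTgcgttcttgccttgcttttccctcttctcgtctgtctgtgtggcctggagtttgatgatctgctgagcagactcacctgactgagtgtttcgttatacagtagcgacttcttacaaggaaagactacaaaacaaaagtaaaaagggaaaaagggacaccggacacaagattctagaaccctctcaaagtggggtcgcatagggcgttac
Hormad1: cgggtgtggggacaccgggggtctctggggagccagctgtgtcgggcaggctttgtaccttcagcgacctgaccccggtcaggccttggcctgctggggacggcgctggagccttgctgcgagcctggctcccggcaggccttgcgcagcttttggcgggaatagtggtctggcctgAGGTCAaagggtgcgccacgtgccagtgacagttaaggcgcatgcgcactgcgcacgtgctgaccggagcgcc
A match is a description of the letters and not a site. The SF1 (NR5A1) motif AAGGTCA, which contains those letters, stood in 0 of 9 fetal Leydig and 0 of 11 Sertoli promoters that the table held, against 4.08% of all. The SOX motif ACAATGG stood in 0 of 11 Sertoli promoters (2.97% of all). The table held no promoter of *Star*, *Amh* or *Cyp17a1*. With so few promoters and such low shares over all, counts of 0 say little about either list.

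Of the 17755 autosomal genes, 4510 were called at an adjusted p under 0.05 from limma and a difference of at least 1.5-fold (25.4%). In DKO ovaries 2169 genes were higher (12.2%) and 2341 were lower (13.2%), with a median difference of -0.03 over all autosomal genes. These shares are the measure for every count of list members called between DKO ovaries and testes below, except for the germ-cell-specific lists of the study, which were selected by sex. Differences of at least 4-fold were found for 317 of the higher and 437 of the lower genes. The arrays of the groups did not overlap for 4428 of the 4510 called genes, while they did not overlap for 50.4% of all autosomal genes, 24.1% with DKO ovaries above and 26.3% with DKO ovaries below. By chromosome, 10.9% to 13.5% of genes were higher and 11.5% to 15.9% were lower, so that no autosome stood apart. The control ovaries stand beside this comparison and share its arrays. Of all autosomal genes 2571 were called between DKO and control ovaries, 6.58% higher and 7.9% lower in DKO, and 33.9% between testes and control ovaries, 17.5% higher and 16.4% lower in testes. Of the 2341 lower genes, 1647 were not called between DKO and control ovaries and were higher in testes than in control ovaries. Of the 2169 higher genes, 1223 were not called between DKO and control ovaries and were lower in testes than in control ovaries. A further 209 were lower in both testes and DKO ovaries than in control ovaries, and 248 were higher in DKO ovaries than in either control gonad with no call between these.

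Sertoli cell genes formed the group with the lowest median. Of 19 Sertoli genes, 18 were lower in DKO ovaries than in testes and 0 were higher, with a median difference of -4.29, or -4.04 with the genes not above background set at their bound. Between DKO and control ovaries 0 of the 19 were called. Here and below, fewer cells of a type and less RNA per cell cannot be told apart in whole gonads. *Sox9*, the transcription factor that drives Sertoli differentiation, was at 0.10, 0.05 and -0.14 in the testes and -3.03, -3.23 and -3.18 in the DKO ovaries (difference -3.15, SE 0.23, adjusted p = 3.83e-06). *Amh*, which encodes anti-Mullerian hormone, was at 1.33, 1.34 and 1.32 in the testes and -5.08, -5.03 and -5.50 in the DKO ovaries, where it was well above background on 1 of 3 arrays (difference -6.53, SE 0.19, adjusted p = 7.94e-09). In the control ovaries it was at -4.96, -5.61 and -5.23, the same low range. *Dhh* encodes the Hedgehog ligand by which Sertoli cells act on the interstitium, and its probe lies at chr15:98723465-98723524. Its level was 4.70, 4.66 and 4.47 in the testes and -1.83, -2.15 and -1.76 in the DKO ovaries (difference -6.52, SE 0.17, adjusted p = 4.10e-09), and the groups did not overlap.

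Among the enzymes of this group, *Cyp26b1*, which degrades retinoic acid and so shields male germ cells from it, lay at 4.52, 4.22 and 4.02 in the testes and -1.34, -1.23 and -1.38 in the DKO ovaries (difference -5.57, SE 0.23, adjusted p = 7.21e-08). *Hsd17b3*, which makes testosterone from androstenedione, was not well above background in any DKO ovary and stood at 0.43, 0.71 and 1.30 in the testes. This made it at least 88.4-fold lower in the DKO ovaries, and *Cbln4*, also dim in every DKO ovary, was at least 8.16-fold lower. The bound takes, on each dim array, the lowest signal counted as well above background in place of the dim value. *Hsd17b1*, an estradiol-forming relative, differed by -6.97 (SE 0.23), with 2 of 3 DKO ovaries well above background. *Ptgds*, the prostaglandin D synthase that feeds back on *Sox9*, differed by -6.68 (SE 0.16), and *Cst9*, a cystatin-like gene of the fetal testis, by -7.27 (SE 0.41). The other SoxE genes were lower as well, *Sox8* at -3.81 (SE 0.25) and *Sox10* at -4.04 (SE 0.52). *Sox8* was well above background in 1 and *Sox10* in 2 of 3 DKO ovaries, and the probes of *Sox8* ranged from -5.01 to -2.61. The smallest called differences were those of *Nedd9* at -1.36 (SE 0.10), of *Inhbb*, a subunit of activin and inhibin, at -1.58 (SE 0.23), and of *Mro* at -2.22 (SE 0.16). *Fgf9*, a growth factor that sustains *Sox9*, was the exception. It lay at -2.71, -2.75 and -2.95 in the testes and -3.66, -3.85 and -2.78 in the DKO ovaries, overlapping through DKO ovary 3 (difference -0.62, SE 0.29, adjusted p = 0.117). It was called without DKO ovary 3, at -0.95, with slide as a fixed block, at -1.84, and with its brightest probe alone, at -0.72.

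**Figure D1:**
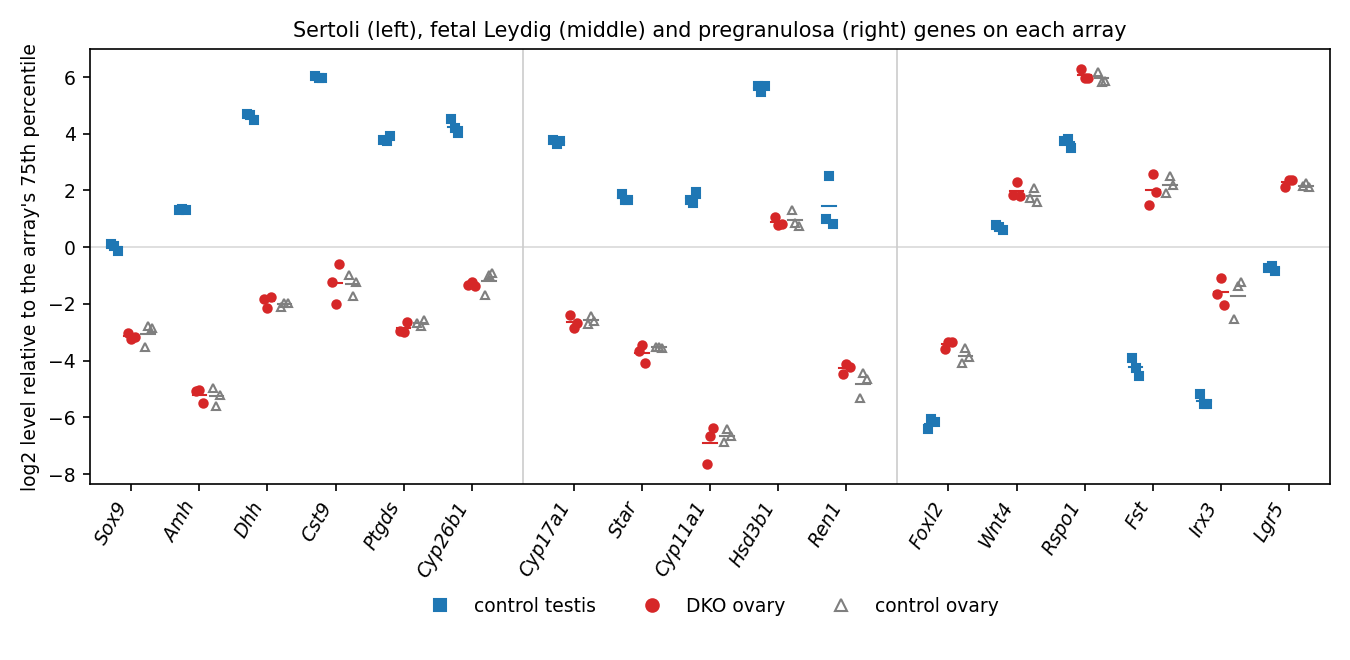
Level of 17 somatic marker genes on each array, as log2 of intensity relative to the 75th percentile of the array; squares are control testes, circles DKO ovaries and open triangles control ovaries, with 3 arrays each and a short line at the group mean. For Sertoli and fetal Leydig genes the DKO ovaries lie with the control ovaries below every testis, and for pregranulosa genes they lie with the control ovaries above every testis.

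Fetal Leydig genes were lower in DKO ovaries without exception among the 13 that were measured of 15 listed, with a median of -3.73 and 0 calls between DKO and control ovaries. *Cyp11a1*, the side-chain cleavage enzyme that opens steroid synthesis, stood at 1.67, 1.55 and 1.95 in the testes and -7.66, -6.67 and -6.37 in the DKO ovaries, of which 1 was well above background (difference -8.62, SE 0.29, adjusted p = 2.29e-08). Its 3 probes ranged from -10.58 to -4.74. *Star* carries cholesterol into mitochondria and was at 1.88, 1.67 and 1.67 in the testes and -3.65, -3.44 and -4.09 in the DKO ovaries (difference -5.47, SE 0.15, adjusted p = 6.84e-09). *Cyp17a1*, the enzyme that commits steroids to the androgen branch, has its probe at chr19:46742594-46743207. It lay at 3.77, 3.63 and 3.76 in the testes and at -2.38, -2.85 and -2.69 in the DKO ovaries (difference -6.36, SE 0.16, adjusted p = 3.68e-09), against -2.70, -2.41 and -2.59 in the control ovaries. *Hsd3b1*, which acts between these steps, was bright in the testes at 5.67, 5.48 and 5.68 and remained near 1 in the DKO ovaries at 1.07, 0.79 and 0.81 (difference -4.72, SE 0.23, adjusted p = 2.67e-07). Its relative *Hsd3b6* differed by -3.72 (SE 0.11). *Ren1*, renin, differed by -5.72 (SE 0.45), with -6.84 for a probe that also lists *Ren2* and -4.59 for the other. The luteinizing hormone receptor *Lhcgr*, well above background in 2 of 3 DKO ovaries, differed by -3.73 (SE 0.36), the lipoprotein receptor *Scarb1* by -2.82 (SE 0.10), and the electron carriers *Fdx1* and *Fdxr* by -1.87 (SE 0.12) and -1.85 (SE 0.12). These last were bright in both gonads, with DKO levels of 2.83, 2.77 and 2.82 for *Fdx1*.

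*Insl3*, the Leydig hormone of testis descent, has no probe under its own name here, and *Jak3*, its neighbour on chromosome 8, appeared among the 10 largest falls. The array's annotation gives transcripts of *Insl3* and *Jak3* for the probes at chr8:74214085-74214144 and chr8:74214308-74214367. The first lay at 2.99, 2.88 and 2.90 in the testes and -4.17, -4.15 and -4.67 in the DKO ovaries (difference -7.25, adjusted p = 7.13e-10 from limma over 27311 probes). The second lay at 5.17, 5.12 and 5.17 in the testes and -3.74, -3.65 and -3.76 in the DKO ovaries (difference -8.87, adjusted p = 4.58e-12). The probe that lists *Jak3* alone, at chr8:74210826-74211151, lay at -4.05, -3.84 and -3.81 in the testes and -5.20, -4.13 and -4.27 in the DKO ovaries (difference -0.63, adjusted p = 0.0511). With probes that name several genes left out, *Jak3* was no longer called, at -0.63.

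**Figure D2:**
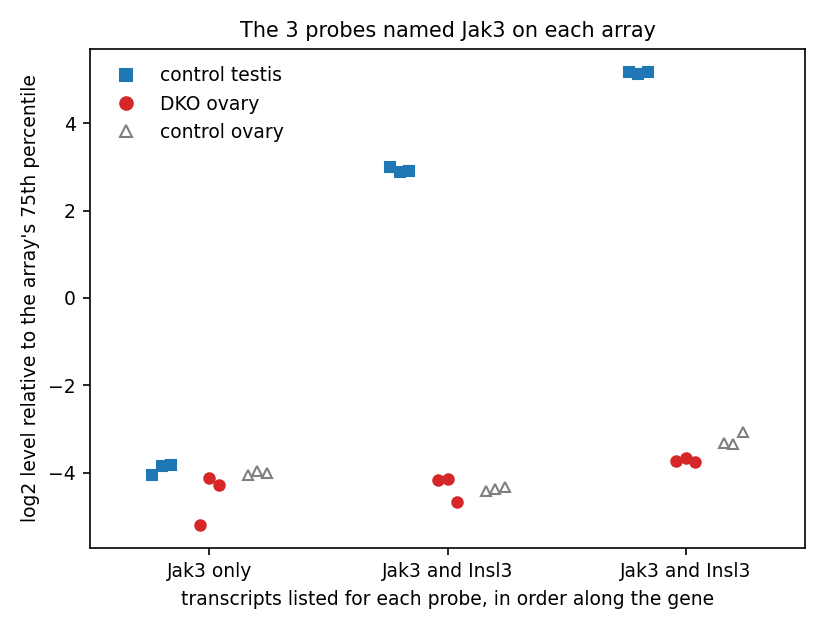
Level of the 3 probes named *Jak3* on each array, as log2 of intensity relative to the 75th percentile of the array, in order along the gene; squares are control testes, circles DKO ovaries and open triangles control ovaries. The 2 probes that also list *Insl3* lie far lower in both kinds of ovary than in the testes, with differences of -7.25 and -8.87 for the DKO ovaries, and the probe that lists *Jak3* alone has a difference of -0.63.

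Steroid synthesis draws on cholesterol, and 11 of 16 genes of its synthesis and uptake were lower in DKO ovaries, with 0 higher and a median of -0.89. *Fdft1*, squalene synthase, was at 2.50, 2.76 and 2.94 in the testes and 1.31, 1.44 and 0.57 in the DKO ovaries (difference -1.62, SE 0.23, adjusted p = 3.54e-04). *Lss*, which closes the sterol ring, differed by -1.47 (SE 0.16). *Sqle*, squalene epoxidase, differed by -0.92 (SE 0.10). *Srebf2* and *Insig1*, which regulate the pathway, were not called, at -0.34 (SE 0.12) and -0.19 (SE 0.17). With slide as a fixed block 5 of the 16 were lower, and *Sqle* was not called, at -0.58.

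Of 10 genes of the Hedgehog pathway, which included targets, receptors and a transducer, 4 were lower in DKO ovaries and 1 was higher. Whether these values follow from the lower *Dhh* was not tested. *Hhip*, a decoy receptor induced by the pathway, was at -0.59, -0.71 and -0.65 in the testes and -4.61, -5.82 and -4.78 in the DKO ovaries (difference -4.42, SE 0.35, adjusted p = 7.37e-06). *Gli1*, a transcription factor and pathway target, differed by -2.78 (SE 0.30), with 1 of 3 DKO ovaries well above background. The receptor *Ptch1* differed by -1.26 (SE 0.27) from the testes, while it was higher than in control ovaries by 1.05. *Gli2* differed by -1.11 (SE 0.12), while the transducer *Smo* and the co-receptor *Cdon* were at -0.04 (SE 0.15) and 0.08 (SE 0.10) and were not called. *Boc*, another co-receptor, was higher by 0.60 (SE 0.15) in the DKO ovaries, a call lost without testis 3, DKO ovary 2 or DKO ovary 3 (0.52 to 0.56), and with slide as a fixed or random block, at 0.25 and 0.53. All 3 adrenal cortex genes that passed the filter, of 5 listed, were also lower in DKO ovaries, *Akr1b7* at -2.44 (SE 0.11), *Mc2r* at -1.40 (SE 0.26) with 2 of 3 DKO ovaries well above background, and *Mrap* at -1.26 (SE 0.18), the last not called with slide as a fixed block, at -0.84. *Cyp21a1* and *Cyp11b2*, which define adrenal steroid synthesis, did not pass the filter in any group.

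Genes of the interstitium and of the cord boundary differed less. Of 11 interstitial genes 7 were lower in DKO ovaries (median -0.71), of 6 smooth muscle and peritubular genes 4 were lower (median -1.20), and of 12 basement membrane genes 6 were lower (median -0.62). None of these genes was called higher. *Tcf21*, a transcription factor of gonadal stroma, was at 3.25, 3.34 and 3.10 in the testes and 1.78, 1.79 and 2.48 in the DKO ovaries (difference -1.21, SE 0.17, adjusted p = 3.65e-04). *Nr2f2* differed by -1.12 (SE 0.18) and the matrix gene *Ogn* by -2.22 (SE 0.43). Among genes of contractile cells, the actin *Acta2* was at 0.84, 0.71 and 0.53 in the testes and -0.42, -0.49 and -0.32 in the DKO ovaries (difference -1.10, SE 0.19, adjusted p = 0.0013), its 4 probes ranging from -1.83 to -0.59. *Cnn1*, calponin, differed by -1.93 (SE 0.31) and *Tagln*, transgelin, by -1.68 (SE 0.21). *Myh11*, the smooth muscle myosin, was not called at 0.58 (SE 0.25), and without DKO ovary 1 it was called higher, at 0.86. Among collagens of basement membranes, *Col4a1* was at 3.07, 3.10 and 3.19 in the testes and 0.83, 1.47 and 1.81 in the DKO ovaries (difference -1.75, SE 0.21, adjusted p = 1.20e-04), and *Col4a2* differed by -1.52 (SE 0.24). *Lama2* differed by -1.94 (SE 0.14), while *Lamc1* and *Hspg2* were at -0.08 (SE 0.14) and 0.16 (SE 0.12). The interstitial count fell to 4 without testis 1 or without DKO ovary 1, and *Col1a2* (-0.85 to -0.79 there) and *Col3a1* (-0.66 to -0.62) were among those lost.

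Pregranulosa genes ran the other way. All 15 that passed the filter, of 16 listed, were higher in DKO ovaries than in testes, with a median of 2.99, and 1 of them, *Msx1*, differed between DKO and control ovaries. *Fst* encodes follistatin, which binds activin, and its probe lies at chr13:115244692-115245364. It stood at -3.92, -4.26 and -4.54 in the testes and 1.48, 2.57 and 1.96 in the DKO ovaries, a 75.8-fold difference (difference 6.24, SE 0.30, adjusted p = 2.50e-07), against 1.90, 2.52 and 2.18 in the control ovaries. *Foxl2*, the transcription factor that maintains granulosa identity, was not well above background in any testis and lay at -3.59, -3.33 and -3.33 in the DKO ovaries. It was therefore at least 5.32-fold higher (adjusted p = 9.58e-07 from limma). *Wnt4* and *Rspo1*, the signals of ovarian differentiation, were expressed in both gonads. *Wnt4* was at 0.77, 0.71 and 0.61 in the testes and 1.82, 2.30 and 1.81 in the DKO ovaries (difference 1.28, SE 0.17, adjusted p = 2.65e-04). *Rspo1* was at 3.76, 3.83 and 3.50 in the testes and 6.28, 5.98 and 5.97 in the DKO ovaries (difference 2.38, SE 0.14, adjusted p = 8.53e-07), among the brightest of the list.

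Of the same list, *Axin2*, a target of WNT signalling, was higher by 1.87 (SE 0.15), the WNT transcription factor *Lef1* by 1.60 (SE 0.11) and the R-spondin receptor *Lgr5* by 3.03 (SE 0.11). *Irx3* and *Irx5*, homeobox genes of the ovary, were higher by 3.83 (SE 0.34) and 3.25 (SE 0.32), with 2 of 3 testes well above background for each. *Kitl*, the ligand of the germ cell receptor KIT, was higher by 1.61 (SE 0.20), and *Bmp2*, the ovarian BMP, by 1.85 (SE 0.17). *Gng13* was at -0.10, -0.15 and 0.79 in the testes and 4.32, 4.02 and 3.99 in the DKO ovaries (difference 3.94, SE 0.42, adjusted p = 5.46e-05). The *Runx1* value of 2.99 was the mean of probes that differed, at 0.38 and 5.60. With the probe well above background on all 6 arrays alone it was 0.38 and not called.

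Other ovarian surface and neighbouring tissues were read as well. Of 9 surface epithelium genes 5 were higher in DKO ovaries (median 0.91), with *Krt18* at 2.59, 2.66 and 2.55 in the testes and 4.04, 4.08 and 4.52 in the DKO ovaries (difference 1.61, SE 0.14, adjusted p = 1.17e-05). *Upk3b*, a mesothelial marker, was higher by 1.42 (SE 0.15), and *Upk1b* was at -1.22 (SE 0.75). Of 8 mesonephric genes 5 were higher (median 0.74), among them *Gata3* by 3.07 (SE 0.23) and *Emx2* by 1.90 (SE 0.19). The count was 3 without testis 1, without testis 2 and with slide as a block. *Cdh16*, a kidney tubule cadherin, was at -2.14, -2.91 and 1.20 in the DKO ovaries, where DKO ovary 3 was the highest. The call was lost without that array, at 2.50, and without any 1 of the testes, at 3.64 to 3.93, and with slide as a fixed block the difference was -0.53. The defining mesonephric genes *Pax2* and *Lhx1* were at -0.42 (SE 0.17) and 0.24 (SE 0.28) and were not called. *Pax2* was well above background in 1 of 3 DKO ovaries and was called lower with slide as a fixed or random block, at -1.05 and -0.62. Of 15 macrophage genes 6 were higher (median 0.44), with *Cd14* at -4.50, -4.08 and -4.24 in the testes and -1.02, -2.35 and -2.85 in the DKO ovaries (difference 2.20, SE 0.39, adjusted p = 0.00158). DKO ovary 1 was the highest array for *Cd14*, *Adgre1*, *Lyz2* and *Tyrobp*. Without it 4 of the 15 were called, and the receptor *Csf1r* was at -0.03 (SE 0.13) with all arrays. The mean level of the macrophage list was -1.51 to -0.92 in DKO ovaries and -1.97 to -1.86 in testes.

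Endothelial genes were nearly balanced, with 2 of 20 higher (10%), 3 lower (15%) and a median of -0.28. These shares were near those over all autosomal genes, 12.2% higher and 13.2% lower. *Pecam1* and *Cdh5*, which mark all endothelium, were at 0.03 (SE 0.17) and -0.22 (SE 0.13) and were not called. *Dll4*, a Notch ligand of arteries, differed by -1.16 (SE 0.21) with 2 of 3 DKO ovaries well above background, and *Eng* by -1.13 (SE 0.18), whereas *Kdr*, the VEGF receptor, was higher by 0.95 (SE 0.20). *Eng* at -0.84 and *Kdr* at 0.22 were not called with slide as a fixed block. Leaving out testis 2, testis 3, DKO ovary 1 or DKO ovary 3 left 1 of the 20 genes higher, and without testis 3, 5 were lower. Of 8 erythroid genes 1, *Epb42*, was called higher, at -3.24, -3.70 and -3.39 in the DKO ovaries against -4.74, -4.42 and -4.46 in the testes and not called with slide as a fixed block, at 1.07, and the alpha globin probe, which reads *Hba-a1* and *Hba-a2*, was at 0.14 (SE 0.14). Of 9 skeletal muscle genes 0 were called by limma in the shared fit, and 0 had an unadjusted p under 0.05 there. That fit also took its spread from the control ovaries. When only the 6 arrays compared were fitted, *Acta1* was called lower, at -1.46, and *Myl1* higher, at 1.90. The methods' t-test also called *Acta1* lower, and without DKO ovary 1 *Tnni1* was called higher, at 0.61. The mean level of the list was -1.37 to -1.04 in DKO ovaries and -1.72 to -0.80 in testes. Control ovaries reached 2.14 there, through control ovary 3. The part of other tissues in the differences above was not tested.

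**Figure D3:**
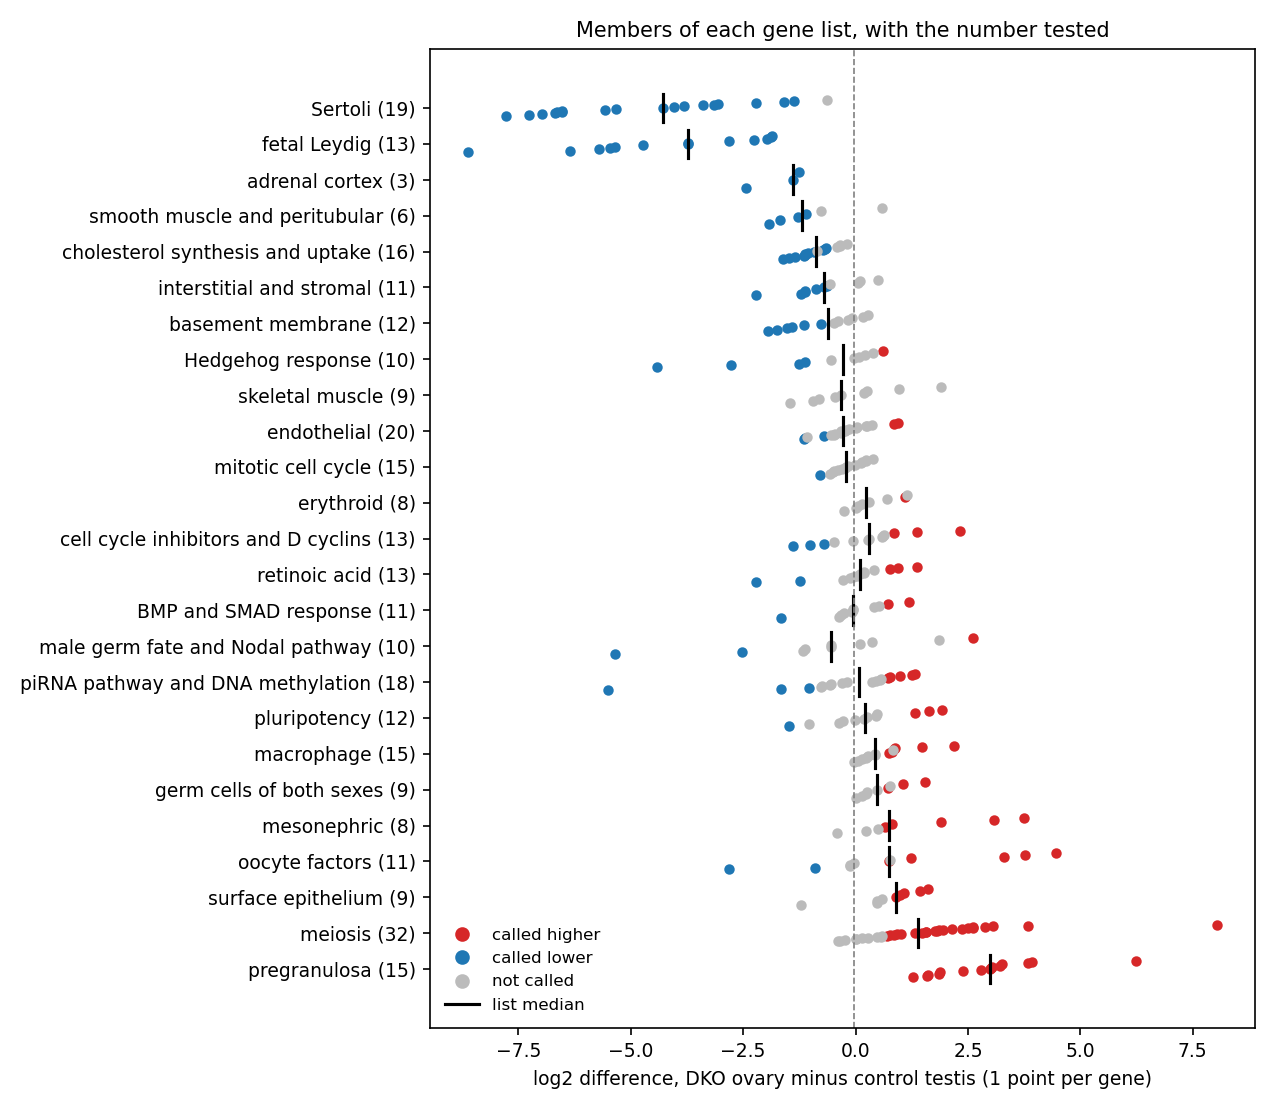
Log2 difference between DKO ovaries and control testes for each gene of 25 lists, 1 point per gene, with the number tested beside the name; red points were called higher, blue points called lower and grey points not called, and the black bar is the list median. Sertoli and fetal Leydig genes lie at the left end with medians of -4.29 and -3.73, and pregranulosa and meiosis genes at the right end with 2.99 and 1.40.

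Genes of germ cells of both sexes set the scale for the germ cell comparisons. Of 9 such genes 3 were higher in DKO ovaries and 0 were lower, with a median of 0.48. *Ddx4* encodes the mouse vasa homolog, an RNA helicase of germ cells. It was at 4.36, 4.51 and 4.60 in the testes and 5.48, 5.04 and 5.09 in the DKO ovaries (difference 0.71, SE 0.15, adjusted p = 0.0048), without overlap, and without DKO ovary 1 it was no longer called, at 0.57. *Dazl*, an RNA-binding protein that licenses sexual differentiation, was at 1.69, 1.74 and 2.14 in the testes and 3.33, 3.57 and 3.27 in the DKO ovaries (difference 1.54, SE 0.14, adjusted p = 1.96e-05). The receptor *Kit* was higher by 1.05 (SE 0.20). *Mael*, *Sall4* and *Tfap2c* were at 0.01 (SE 0.17), 0.25 (SE 0.26) and 0.48 (SE 0.39) and were not called. Whether the *Ddx4* and *Dazl* levels account for any germ cell result below was not tested. Counts are also given with the level of *Ddx4*, or of *Dazl*, subtracted on each array, the second chosen after seeing the data.

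Meiosis genes were higher in DKO ovaries than in testes for 22 of 32 genes tested, of 34 listed, and 0 were lower, with a median of 1.40, or 1.31 with genes not above background at their bound. Between DKO and control ovaries 27 of the 32 were lower in DKO ovaries and 0 were higher. With *Ddx4* subtracted 15 of the 32 were higher than in testes, and with *Dazl* subtracted 8 were, with medians of 0.69 and -0.14. Over all 17755 autosomal genes these fits called 606 and 247 higher, and the medians were -0.74 and -1.56, below those of the meiosis list. *Rec8*, a meiotic cohesin, was near its control ovary level. It was at -1.21, -1.18 and -0.26 in the testes, 2.98, 2.74 and 3.17 in the DKO ovaries and 3.43, 2.56 and 2.53 in the control ovaries (difference 3.85, SE 0.30, adjusted p = 6.86e-06). The cohesin subunit *Smc1b* was higher by 2.61 (SE 0.21) than in testes, while the cohesin *Stag3* was at 0.47 (SE 0.24) and was not called.

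Among components of the synaptonemal complex, which joins homologous chromosomes, *Sycp3* was at 0.55, 0.61 and 0.71 in the testes, 2.52, 2.05 and 2.76 in the DKO ovaries and 4.02, 4.39 and 4.34 in the control ovaries (difference 1.82, SE 0.18, adjusted p = 2.97e-05). *Sycp1* differed by 2.60 (SE 0.26), read by a probe that also lists the pseudogene *Sycp1-ps1*. *Syce1*, *Syce2* and *Syce3* were higher by 1.57 (SE 0.18), 1.02 (SE 0.14) and 0.93 (SE 0.24), the last not called with slide as a fixed block, at 0.56. *Sycp2* and *Tex12* were at 0.58 (SE 0.24) and 0.29 (SE 0.24) and were not called. The axis proteins *Hormad1* and *Hormad2* were higher by 1.77 (SE 0.16) and 1.94 (SE 0.19).

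Genes of double strand breaks and their repair differed more unevenly. *Mei1*, which is needed for breaks, was at -3.83, -2.92 and -3.44 in the testes, -0.25, -1.23 and 0.43 in the DKO ovaries and 3.01, 3.47 and 3.32 in the control ovaries (difference 3.05, SE 0.38, adjusted p = 1.51e-04). *Meiob*, a single-strand DNA binding factor, was at -2.17, -2.23 and -2.16 in the testes and 0.16, -0.08 and 0.47 in the DKO ovaries (difference 2.37, SE 0.17, adjusted p = 3.40e-06), against 3.72, 3.85 and 3.86 in the control ovaries. The break enzyme *Spo11* and the recombinase *Dmc1* differed less, higher by 0.87 (SE 0.23) and 0.76 (SE 0.16). Neither was called with slide as a fixed block, at 0.20 and 0.73, and without testis 1 *Spo11* was not called, at 0.72. *Msh4* was higher by 1.47 (SE 0.17), whereas its partner *Msh5* was at 0.00 (SE 0.16). *Msh5* lay at -4.40, -4.72 and -4.72 in the DKO ovaries and -2.34, -2.13 and -2.12 in the control ovaries. *Mnd1*, *Psmc3ip*, *Trip13* and *Tex15* were not called, at -0.36 (SE 0.21), -0.24 (SE 0.10), 0.00 (SE 0.16) and -0.38 (SE 0.19), and the *Mnd1* probe also lists a pseudogene. *Tex15* was called lower without DKO ovary 3, at -0.59.

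Telomere attachment genes were higher too, *Terb2* by 2.87 (SE 0.24) and *Majin* by 1.86 (SE 0.27), although 2 of 3 testes for *Terb2* and 1 of 3 for *Majin* were well above background. *Terb1* was not well above background in any testis and was at -6.02, -4.59 and -3.03 in the DKO ovaries, of which 2 were. It was at least 2.43-fold higher. Its call was lost without testis 2, testis 3, DKO ovary 2 or DKO ovary 3, at 1.40 to 2.22, and with slide as a fixed block, at 0.36. *Meioc*, which sustains the meiotic program, differed by 2.49 (SE 0.39), and *Ythdc2*, its partner, by 0.71 (SE 0.11). With slide as a fixed block 16 of the 32 genes were higher and *Ythdc2* was not called, at 0.59, and with normexp background correction 13 were.

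**Figure D4:**
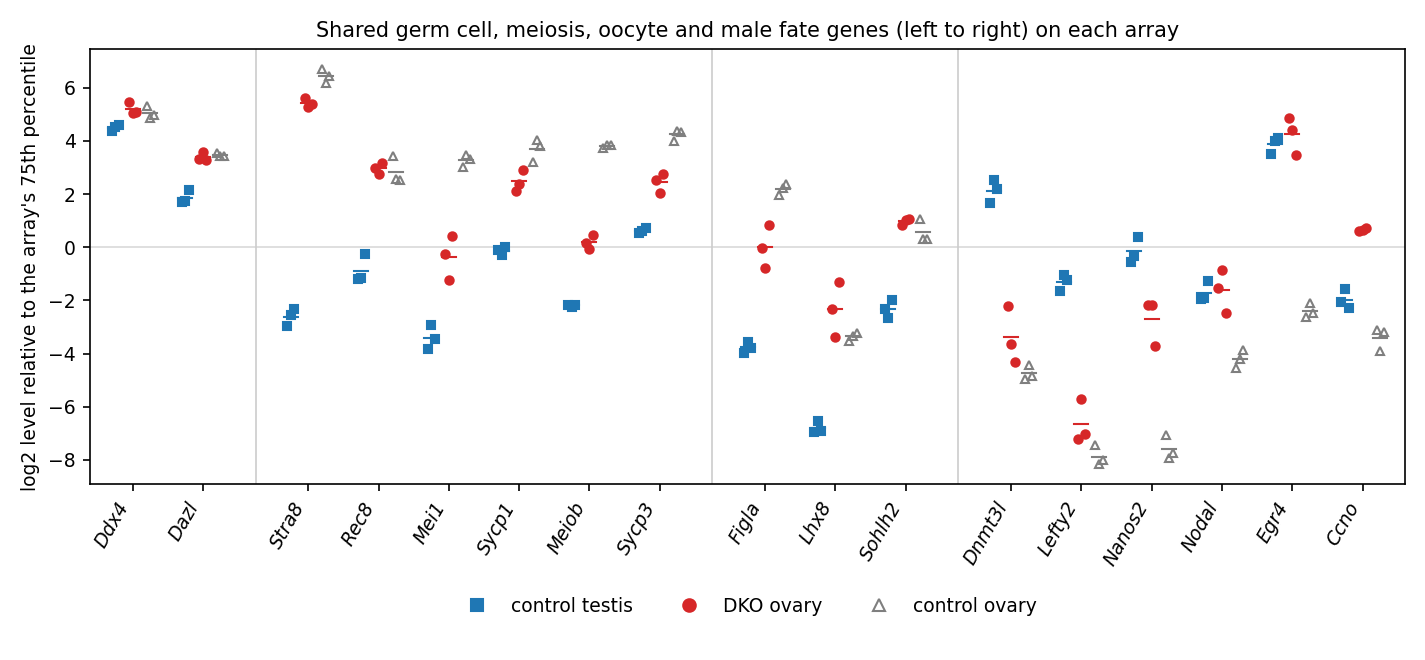
Level of 17 germ cell genes on each array, as log2 of intensity relative to the 75th percentile of the array; squares are control testes, circles DKO ovaries and open triangles control ovaries, with 3 arrays each and a short line at the group mean. For *Mei1*, *Meiob*, *Sycp3* and *Figla* the DKO ovaries lie between the testes and the control ovaries, and for *Dnmt3l*, *Lefty2* and *Nanos2* they lie below the testes.

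Of 11 oocyte factors that passed the filter, of 17 listed, 5 were higher in DKO ovaries and 2 were lower (median 0.75). *Figla*, a transcription factor of follicle formation with its probe at chr6:85970895-85970954, was at -3.98, -3.55 and -3.78 in the testes, -0.04, -0.78 and 0.83 in the DKO ovaries and 1.96, 2.24 and 2.38 in the control ovaries (difference 3.77, SE 0.33, adjusted p = 1.49e-05). *Lhx8*, a homeobox factor of oocytes, was at -6.96, -6.52 and -6.91 in the testes, where 1 of 3 arrays was well above background, and -2.33, -3.38 and -1.30 in the DKO ovaries (difference 4.46, SE 0.42, adjusted p = 2.26e-05). *Sohlh2*, a germline transcription factor, was at -2.32, -2.67 and -1.99 in the testes and 0.82, 1.02 and 1.07 in the DKO ovaries (difference 3.30, SE 0.24, adjusted p = 3.58e-06), and its control ovaries were at 1.06, 0.32 and 0.32. *Padi6* and *Ybx2*, of the oocyte cytoplasm, were higher by 1.23 (SE 0.25) and 0.75 (SE 0.22). *Ybx2* was not called without any 1 of the testes or without DKO ovary 3, at 0.41 to 0.77, and with slide as a fixed block neither was called. *Nobox* and *Gdf9* act later in follicles and were at -0.12 (SE 0.32) and -0.11 (SE 0.15), not called. *Npm2*, a histone chaperone of oocytes, differed by -0.90 (SE 0.17), and *Zp1*, a zona pellucida gene, was at least 2.02-fold lower, with no level for DKO ovary 1, whose spot was left out as an outlier. The zona genes *Zp2* and *Zp3* did not pass the filter, and *Sohlh1* had no matched probe.

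Genes of male germ cell fate were set beside both control gonads. Of 10 genes of the male fate and the Nodal pathway, 2 were lower in DKO ovaries than in testes (20%), 1 was higher (10%) and 7 were not called. These shares were near those over all autosomal genes, 13.2% lower and 12.2% higher. Of the same 10 genes, 7 were higher than in control ovaries, against 6.58% of all autosomal genes. *Nanos2*, the RNA-binding regulator of male germ cells, was at -0.55, -0.32 and 0.40 in the testes, -2.18, -2.17 and -3.70 in the DKO ovaries and -7.08, -7.94 and -7.75 in the control ovaries (difference -2.53, SE 0.62, adjusted p = 0.00894). It thus lay below every testis and far above every control ovary, none of which was well above background. The difference from the testes was -1.26 and not called with slide as a fixed block. The call was also lost with normexp background correction, at -1.48, and by the methods' t-test, at -2.53. *Lefty2*, a Nodal inhibitor with its probe at chr1:182827977-182828036, was at -1.66, -1.06 and -1.22 in the testes and -7.22, -5.73 and -7.02 in the DKO ovaries, of which 1 was well above background (difference -5.34, SE 0.44, adjusted p = 9.82e-06). Its relative *Lefty1* ran the other way, at -2.73, -4.18 and -2.51 in the testes and -1.59, -0.72 and -1.55 in the DKO ovaries, and was not called (difference 1.86, SE 0.69, adjusted p = 0.0584). It was called higher when only the 6 arrays compared were fitted, at the same difference. The ligand *Nodal* was at -1.94, -1.92 and -1.26 in the testes and -1.53, -0.84 and -2.46 in the DKO ovaries, overlapping (difference 0.10, SE 0.40, adjusted p = 0.87), and the co-receptor *Tdgf1* was at -0.54 (SE 0.62) and not called, with 2 of 3 DKO ovaries well above background.

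*Egr4*, a zinc finger factor of male germ cells, was bright in both DKO ovaries and testes, at 4.87, 4.40 and 3.46 against 3.53, 3.99 and 4.10 (difference 0.37, SE 0.40, adjusted p = 0.5), with -2.63, -2.11 and -2.49 in the control ovaries. *Ccno*, cyclin O, was higher in each DKO ovary than in any testis, at 0.60, 0.66 and 0.71 against -2.05, -1.58 and -2.27 in the testes (difference 2.62, SE 0.33, adjusted p = 1.62e-04). *Dnd1*, the RNA-binding partner of NANOS2, was at -1.12 (SE 0.46) and *Nanos3* at -0.56 (SE 0.39), both not called. A p that misses the threshold does not show that these levels were the same.

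Of 18 genes of the piRNA pathway and DNA methylation 5 were higher in DKO ovaries, 3 were lower and the median was 0.09. *Dnmt3l*, the cofactor of de novo DNA methylation in male germ cells, has its probe at chr10:77526112-77526171. It was at 1.65, 2.53 and 2.18 in the testes, -2.19, -3.65 and -4.31 in the DKO ovaries and -4.95, -4.43 and -4.86 in the control ovaries (difference -5.50, SE 0.60, adjusted p = 6.15e-05). DKO ovary 1 was the nearest to the testes, and all 3 DKO ovaries lay above every control ovary, with no call between these groups. *Gtsf1* and *Morc1*, which act in transposon silencing, were lower, at -1.66 (SE 0.28) and -1.04 (SE 0.28). Neither was called with slide as a fixed block, at -0.81 and -0.57, and *Morc1* was not called without testis 3, at -0.94. The Tudor gene *Tdrd12* was higher by 1.26 (SE 0.28), *Tex19.1* by 1.32 (SE 0.31) and *Pld6* by 0.98 (SE 0.28), a call lost without testis 1 or DKO ovary 3, at 0.84 and 0.74, and with slide as a fixed block, at 1.11. *Tdrd1*, *Tdrd5* and *Tdrd9* were at -0.18 (SE 0.27), -0.74 (SE 0.34) and -0.55 (SE 0.23), and *Piwil2*, a PIWI protein, at 0.45 (SE 0.19), none of them called. *Tdrd9* was called lower without DKO ovary 3 and with normexp background correction, at -0.75 in both, and *Tdrd5* with its brightest probe alone, at -0.97. Without that array 3 of the 18 genes were higher. The methyltransferases *Dnmt3a* and *Dnmt3b* were at -0.58 (SE 0.15) and 0.55 (SE 0.12), both under 1.5-fold, and were called with slide as a fixed block, at -0.99 and 0.77. Without testis 1 or DKO ovary 2 they were called too, *Dnmt3a* at -0.60 and -0.69 and *Dnmt3b* at 0.60 and 0.61, and without testis 3 *Dnmt3a* was, at -0.63.

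Pluripotency genes, which stay on longer in male than in female germ cells, included 3 of 12 that were higher in DKO ovaries (25%) and 1 that was lower (8.33%). Over all autosomal genes 12.2% were higher and 13.2% were lower. *Sox2* was at -0.60, -0.87 and -0.02 in the testes and 1.12, 1.73 and 1.41 in the DKO ovaries (difference 1.92, SE 0.41, adjusted p = 0.00422), and *Esrrb* was higher by 1.64 (SE 0.48). *Zfp42*, known as Rex1, was higher by 1.33 (SE 0.36), and *Dppa4* was lower, at -1.47 (SE 0.49). The call of *Esrrb* was lost without testis 1, testis 2, DKO ovary 1 or DKO ovary 2, at 1.39 to 1.57, and that of *Zfp42* without testis 1, testis 2 or DKO ovary 2, at 1.12 to 1.21. That of *Dppa4* was lost without any 1 of the testes or DKO ovary 3, at -1.63 to -1.09, and with slide as a fixed block the difference was 0.55. In that fit 6 of the 12 genes were higher, and 1 was without testis 1, testis 2 or DKO ovary 2. *Pou5f1*, which encodes OCT4, was at 0.84, 1.43 and 1.97 in the testes and 1.31, 1.07 and 1.01 in the DKO ovaries (difference -0.29, SE 0.40, adjusted p = 0.608), and *Utf1* was at -1.04 (SE 0.40), called lower without DKO ovary 2, at -1.35. Both groups lay above the control ovaries, which were -0.24, -1.97 and -1.37 for *Pou5f1*.

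Of 13 retinoic acid genes 3 were higher (23.1%), 2 were lower (15.4%) and 8 were not called (median 0.11). Over all autosomal genes 12.2% were higher and 13.2% were lower. *Aldh1a1*, a retinoic acid synthesis enzyme of Sertoli cells, was at 6.35, 6.40 and 6.55 in the testes and 4.12, 4.14 and 4.42 in the DKO ovaries (difference -2.21, SE 0.16, adjusted p = 4.00e-06). *Aldh1a2*, the main enzyme of the mesonephros, was higher by 0.94 (SE 0.16), the binding protein *Crabp1* by 1.36 (SE 0.16) and the receptor and target *Rarb* by 0.77 (SE 0.22), the last not called without testis 3, DKO ovary 1 or DKO ovary 3 (0.61 to 0.68). Of 11 BMP and SMAD response genes 2 were higher (18.2%) and 1 was lower (9.09%), near the shares over all genes, with a median of -0.06. They were *Msx2* at 0.72 (SE 0.16), *Gata2* at 1.20 (SE 0.40) and *Hey2* at -1.67 (SE 0.32). *Msx2* was not called without testis 1, at 0.57, nor *Gata2* without any 1 array but DKO ovary 2, at 0.67 to 1.32. *Id1*, *Id2* and *Id3*, direct BMP targets, were at 0.40 (SE 0.33), 0.52 (SE 0.22) and -0.38 (SE 0.24) and were not called. *Id1* was called without DKO ovary 2, at 0.80, *Id2* without testis 1, at 0.75, and *Id3* without DKO ovary 3, at -0.71. Of 15 mitotic genes 1, *Cdk1*, was lower, at -0.79 (SE 0.13), and *Mki67* was at -0.50 (SE 0.17) and called lower without testis 3 or DKO ovary 3, at -0.59 and -0.64. Without DKO ovary 3, 3 of the 15 were lower, and without testis 3, 2 were. Among 13 cell cycle inhibitors and D cyclins 3 were higher and 3 lower (23.1% each), against 12.2% and 13.2% over all autosomal genes. *Cdkn1c*, which encodes p57, was at 3.78, 3.15 and 2.95 in the testes and 5.22, 5.86 and 5.79 in the DKO ovaries (difference 2.33, SE 0.28, adjusted p = 1.10e-04), *Cdkn1a* was higher by 1.37 (SE 0.15), and *Cdkn2b* was lower, at -1.40 (SE 0.25). With slide as a fixed block *Rarb*, *Msx2*, *Gata2*, *Hey2*, *Cdk1*, *Cdkn1c* and *Cdkn2b* kept their direction and were not called, at 0.55, 0.74, 1.17, -1.83, -0.39, 1.48 and -0.92, while *Id3* and *Mki67* were called lower, at -0.91 and -1.04.

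The germ-cell-specific gene lists of the study, which its authors drew from arrays of an earlier stage, gave a wider view. Membership already required a 1.5-fold sex difference at that stage, toward the testis for male genes and toward the ovary for female genes. Lower male and higher female genes are thus what this selection favours in any ovary set against a testis. Between testes and control ovaries, 273 male genes were higher in testes and 287 female genes were lower. Shares over all autosomal genes are therefore no neutral measure for these lists. Of 346 male germ-cell-specific genes tested, 125 were lower in DKO ovaries than in testes (36.1%) and 27 were higher (7.80%), with a median difference of -0.48. Over all autosomal genes 13.2% were lower and 12.2% were higher. Of the 125, 72 were not called between DKO and control ovaries and were higher in testes than in control ovaries. A further 47 were also higher in DKO than in control ovaries, and so lay between both control gonads. Of 300 female germ-cell-specific genes, 114 were higher in DKO ovaries than in testes (38.0%) and 4 were lower, with a median of 0.45. Of these 114, 89 were lower in DKO than in control ovaries and lay between both as well. With *Ddx4* subtracted 235 male genes were lower and 50 female genes were higher, and with *Dazl* subtracted 311 and 26. Over all 17755 autosomal genes, 9990 were lower and 606 higher with *Ddx4* subtracted, and 16174 and 247 with *Dazl*. The male counts therefore moved with a shift of most genes. The median of the female genes turned to -0.26 and -1.09 in these fits, beside -0.74 and -1.56 over all autosomal genes. With slide as a fixed block 49 male genes were lower and 72 female genes were higher. Over all 17755 autosomal genes 2104 were lower and 1619 higher in that fit. The medians there were -0.10 for male genes, 0.36 for female genes and -0.07 over all autosomal genes. The male median thus lay near that of all genes in that fit.

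Named by their size among the male genes, *Dnmt3l* led the falls. *Gzma*, a granule protease, was not well above background in any DKO ovary and at least 8.69-fold lower, and *Trim61* was at -2.83, -2.03 and -1.93 in the testes and -5.25, -7.60 and -7.12 in the DKO ovaries, of which 1 was well above background (difference -4.39, SE 0.51, adjusted p = 9.69e-05). *Oas1d*, whose probe also lists *Oas1h*, was called lower and lay at -5.16, -6.15 and -6.95 in the DKO ovaries, again with 1 of 3 DKO ovaries well above background. *Myom2*, also known as a muscle gene, differed by -4.65 (SE 1.33), with control ovary 3 at 1.90, and was not called without testis 1, testis 3 or DKO ovary 3, at -4.56 to -4.45. The largest rises were those of *Cfap52*, a cilium gene, at -3.13, -3.34 and -3.35 in the testes and 1.35, 1.47 and 0.70 in the DKO ovaries (difference 4.45, SE 0.50, adjusted p = 7.73e-05), and of *Ccno*. *Sox2ot*, which overlaps *Sox2*, differed by 2.49 (SE 0.77) with 2 of 3 testes well above background, a call lost without testis 1, testis 2, DKO ovary 1 or DKO ovary 3 (1.88 to 2.55), and *Pde4c*, a phosphodiesterase, by 1.94 (SE 0.38). Among female genes, *Stra8* was followed by *Cdx2*, *Lhx8*, *Slc27a2* and *Adcy10*. *Cdx2* and *Adcy10* were not well above background in any testis and were at least 7.69-fold and at least 7.52-fold higher, and *Adcy10* was not called with slide as a fixed block, at 3.37. *Slc27a2*, a fatty acid transporter, was at -5.75, -4.41 and -3.97 in the testes, of which 2 were well above background, and -0.57, -0.88 and -1.05 in the DKO ovaries (difference 3.87, SE 0.39, adjusted p = 3.69e-05). The 4 female genes that were lower, *Acer3*, *Sgsm3*, *Pcx* and *5430410E06Rik*, differed by -0.91 to -0.75. The call of *5430410E06Rik* was lost without testis 1, testis 3 or DKO ovary 3, at -0.71 to -0.67, and with slide as a fixed or random block, at -0.42 and -0.68, and its sign turned with normexp background correction, at 0.22. *Sgsm3* was not called with slide as a fixed block, at -1.17. *Acer3*, a ceramidase, was at -0.06, -0.16 and -0.32 in the testes and -0.98, -1.17 and -1.12 in the DKO ovaries, and further below the control ovaries, at a difference of -2.55.

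**Figure D5:**
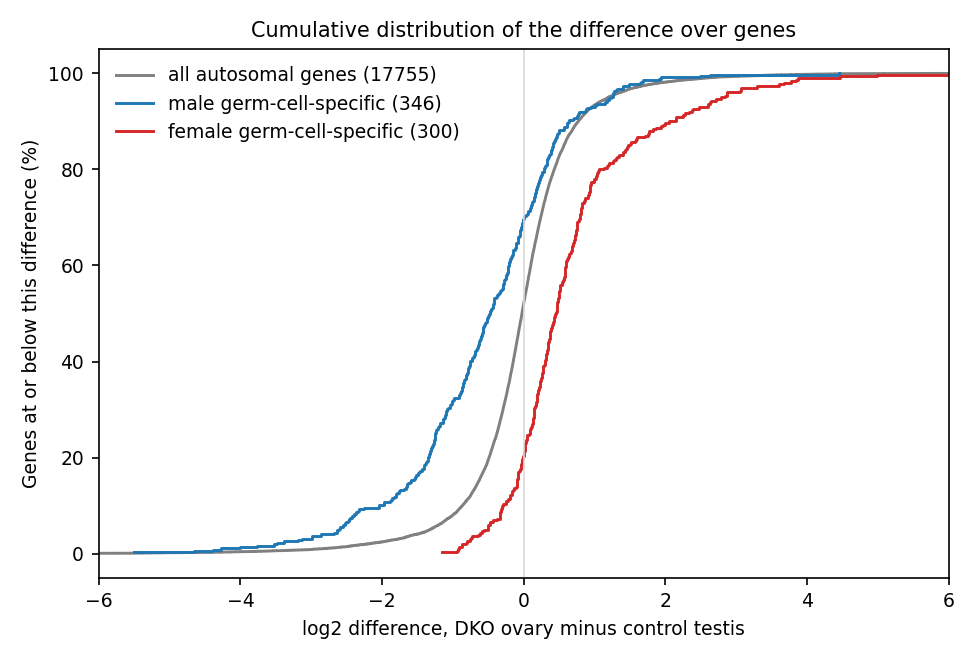
Cumulative share of genes at or below each log2 difference between DKO ovaries and control testes, for 346 male germ-cell-specific genes, 300 female germ-cell-specific genes and all 17755 autosomal genes. The male curve lies to the left of all genes with a median of -0.48, the female curve to the right with 0.45, and all genes have a median of -0.03. Both lists were selected for a sex difference in these directions at an earlier stage.

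Among genes well above background on all 6 arrays, the 10 largest falls were mainly genes of the lists above, with *Cst9*, *Ptgds*, *Tesc*, *Dhh*, *Cyp17a1* and *Ren1* among them. The others were *Jak3*, described with *Insl3*, and *Gsta1*, *Sostdc1* and *Adh1*. *Gsta1*, a glutathione transferase whose probe also lists *Gsta2* and *Gm10639*, was at 2.41, 2.16 and 2.29 in the testes and -4.39, -4.46 and -4.50 in the DKO ovaries (difference -6.73, SE 0.16, adjusted p = 2.41e-09). *Sostdc1*, a secreted BMP and WNT antagonist, was at 3.72, 3.14 and 3.53 in the testes and -2.74, -4.56 and -2.14 in the DKO ovaries (difference -6.61, SE 0.67, adjusted p = 3.95e-05). *Adh1*, an alcohol dehydrogenase that can oxidise retinol, was at 4.25, 4.07 and 4.22 in the testes and -2.92, -1.85 and -1.82 in the DKO ovaries (difference -6.38, SE 0.37, adjusted p = 7.44e-07).

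Among genes well above background on all 6 arrays, *Stum* followed *Stra8* as the second-largest rise, ahead of *Fst*. It was at -4.84, -5.23 and -5.52 in the testes and 1.33, 1.08 and 1.23 in the DKO ovaries (difference 6.41, SE 0.19, adjusted p = 7.94e-09). *Meltf*, a transferrin-like protein, differed by 5.16 (SE 0.18), *Lypd6b* by 4.60 (SE 0.21) and *Ly6d* by 4.25 (SE 0.47). These were near their control ovary levels, for which *Stum* was at 1.32, 0.95 and 1.01. *Prap1* and *Cfap52* were also above the control ovaries, *Prap1* at -0.14, 0.54 and -0.37 against -1.55, -3.04 and -2.79 and at -4.47, -4.35 and -4.34 in the testes (difference 4.40, SE 0.41, adjusted p = 2.10e-05). *Wfdc17*, a gene of activated macrophages, was at 1.48, -1.06 and -1.82 in the DKO ovaries, where DKO ovary 1 stood above the others as it did for macrophage genes (difference 4.38, SE 0.81, adjusted p = 0.00193).

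Genes not above background in 1 of the gonads have bounds. After *Hsd17b3*, the lower genes not well above background in any DKO ovary were the chemokine *Ccl17*, at least 34.5-fold lower, *Clec12b*, at least 23.8-fold lower, *Colec10*, at least 20.5-fold lower, *Rasgrf2*, at least 10.7-fold lower, and *Cnmd*, at least 10.46-fold lower. None of these differed between DKO and control ovaries by the call. Higher genes not well above background in any testis were *2210407C18Rik*, at least 49.5-fold higher, *Ces1h*, a carboxylesterase, at least 21.7-fold higher, *Cfd*, at least 13.1-fold higher, *Cyp4f15*, at least 12.3-fold higher, *Ucp1*, the uncoupling protein of brown fat, at least 11.6-fold higher, and *Lpar3*, a lysophosphatidic acid receptor, at least 11.1-fold higher. *Lpar3* was at -1.93, -1.96 and -3.02 in the DKO ovaries and -6.92, -6.43 and -5.95 in the control ovaries, so that it was above both control gonads, as *Cfd* was. *Topaz1*, a gene of germ cells, differed by -1.65 (SE 0.22), and *Gapdh*, a common reference gene, was at -0.45 (SE 0.16), under 1.5-fold, on probes that also list pseudogenes. Without DKO ovary 3 *Gapdh* was called lower, at -0.59.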

How the data were processed

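RNA of whole E14.5 gonads was hybridised to single-colour Agilent arrays and read by the authors with Feature Extraction 11.0.1.1, whose probe positions are on mm9. The intensity deposited per spot by the authors is the background-subtracted processed signal of each array. The deposited table holds the same intensity rounded, with no scaling between arrays. Control spots and outlier spots were left out. Here log2 of the intensity was taken minus the 75th percentile of each array over spots that were not controls, computed from the deposited intensity. A probe was kept where every array of 1 or more of the 4 groups read it well above background (27311 of 41174), and spots of a probe, then probes of a gene, were averaged. Of the kept probes, 359 list transcripts of several genes.

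One limma model (3.58.1, R 4.3.3) was fitted over all 12 arrays and 4 groups, including the *Smad4*flox/flox MerCreMer *Stra8*+/- ovaries. The p-values were adjusted by Benjamini-Hochberg over 18666 genes. Calls needed an adjusted p under 0.05 together with a 1.5-fold difference. With 3 arrays against 3, an exact permutation test of a single value could not go below 0.1. Precision was limited by the number of arrays, and depth has no counterpart on arrays. The test was checked on simulated data with 200 of 18634 genes changed, where it recovered 57% of 2-fold and 94% of 4-fold changes. With slide as a fixed block the fit recovered 9% and 68%, although no slide effect was simulated. Many more genes were called in the real data, 4510 of 17755, and the adjustment is stricter where few genes change. The shares recovered therefore do not carry over to this comparison. Within the simulation the fit with slide recovered fewer changes, so a call lost in that fit was to be read with its difference.

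Gene lists, members and tests were chosen with earlier results of these data known. Named genes were the first 3 of each list and its largest called changes, the 10 largest rises and falls measured on all 6 arrays, the 5 largest called changes of the germ-cell-specific lists in each direction, the genes of the primer table of the study, the targeted genes, and the 6 largest bounds in each direction. Some genes that this rule names are not reported here. List members named beyond this were chosen after their values were seen. Alternatives were quantile normalization, the deposited table unscaled, normexp background correction, the brightest probe, other filters, a 2-fold threshold, slide and replicate number as blocks, only the 6 arrays, the methods' t-test, leaving out each array, and subtracting *Ddx4*. Leaving out probes of several genes and subtracting *Dazl* were added after seeing the data. Promoters came from RefSeq (GRCm38.p6).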

Additional observations from a re-analysis of the deposited data

How the results depend on the processing

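The counts of Sertoli, fetal Leydig and pregranulosa genes stayed within 1.5 times under every alternative in which they were counted. They were not counted with *Ddx4* or *Dazl* subtracted, where the pregranulosa median was 2.28 and 1.45. Of 4510 called genes 2616 were shared with the fit that took slide as a fixed block, which called 1619 genes higher and 2104 lower. The autosomal counts higher and lower in DKO ovaries, 2169 and 2341, were 1260 and 941 on the deposited table without scaling, 726 and 698 with normexp background correction, and 1078 and 1268 at a 2-fold threshold. The median difference over all autosomal genes was -0.03, against 0.09 on the deposited table and 0.16 with normexp. Of the calls made without scaling, 57.2% were higher, against 48.1%. Male germ-cell-specific genes called lower, 125, were 67 on the deposited table, 29 with normexp, 49 with slide as a fixed block, 62 by the methods' t-test, 235 with *Ddx4* and 311 with *Dazl* subtracted. Subtracting *Ddx4* or *Dazl* moved the median over all genes to -0.74 and -1.56, with 9990 and 16174 of 17755 autosomal genes called lower. Female germ-cell-specific genes called higher, 114, were 46 with normexp, 65 at 2-fold, 72 with slide as a fixed block, 50 with *Ddx4* and 26 with *Dazl* subtracted. Meiosis genes called higher, 22, were 13 with normexp and 8 with *Dazl* subtracted.

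Leaving out 1 array at a time gave 1905 to 2151 autosomal genes higher and 2036 to 2314 lower, 18 to 19 Sertoli, 13 to 13 fetal Leydig, 15 to 15 pregranulosa and 21 to 23 meiosis genes, 97 to 134 male and 99 to 110 female germ-cell-specific genes. Direction changed for 6 of the 357 single genes followed, called or not, where a change counted only if the main or the alternative fit called the gene. Changes of sign in genes called in neither fit were not counted. *5430410E06Rik* was at 0.22 with normexp, and with slide as a fixed block *Cdh16* was at -0.53, *Dppa3* at 1.95, *Dppa4* at 0.55, *Erg* at -0.24 and *Trip13* at 0.67. The cause was not tested. Replicate numbers did not pair the samples, since deviations of arrays with the same number correlated at -0.07, -0.06 and -0.04, and with the replicate block 2112 genes were higher and 2327 lower.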
